A study of Mus musculus with 8 samples.

Results

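The genes described here are 37 genes that make and mature the interstitial collagens: 24 collagen chains, leaving out those listed as basement membrane or tendon collagens, and 13 genes for collagen chaperones, lysyl hydroxylases, lysyl oxidases and enzymes that trim the propeptides. They were chosen by name from a list and are 37 of the 24848 gene symbols in the tables. RNA was sequenced from the tibialis anterior, a leg muscle, in 4 libraries of the praliciguat group and 4 of the placebo group. Praliciguat stimulates soluble guanylate cyclase, the receptor of nitric oxide that makes cGMP. All 8 libraries came from male Leprdb/db mice, an obese and diabetic strain without functional leptin receptor signalling, and in every case hind limb ischemia surgery preceded sampling by 28 days. The praliciguat group ate chow with 75 ppm of the drug, aimed at the plasma level of 10 mg/kg/day by mouth, for 31 days from day -3, and the placebo group ate chow without it. The animals' ages are not given in the sources used here, and no lean or unoperated group was analysed here. Whether the libraries are from separate mice is not stated outright in the labels, and p-values refer only to the spread between them. RNA came from whole muscle, so fewer cells of a type and less RNA per cell cannot be told apart.

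Collagens are made as procollagen chains in the endoplasmic reticulum, where prolyl and lysyl residues are hydroxylated, 3 chains wind into a triple helix and the chaperone HSP47 holds the helix until export. Outside the cell, proteinases remove the end propeptides, the trimmed molecules line up into fibrils, and lysyl oxidases start the cross-links that make the fibrils stiff. In skeletal muscle the main source is the fibroblast of the connective tissue sheaths, also called the fibro-adipogenic progenitor, and fibrous tissue can build up after ischemia.

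Total expected counts per library ran from 21099764 to 31896205, and 13569 genes passed the filter on low counts, all 37 members among them. Genes that mark muscle fibres, such as Acta1 and Ckm, summed to 147026 to 173044 TPM (transcript abundance scaled for transcript length and for the library's total) in praliciguat libraries and to 153416 to 165224 TPM in placebo libraries. Muscle fibre transcripts were thus abundant in every library, as the tissue label would have it. Praliciguat replicate 3 stood apart in connective tissue and macrophage genes, as described below, and results that rest on it are given with and without it.

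No member rose or fell with praliciguat by edgeR's quasi-likelihood test at an adjusted p under 0.05, and neither did any of the 13569 genes tested (0%). At an unadjusted p under 0.05, 1 member was lower and 0 were higher, where 3.78% of all genes tested were lower and 1.95% higher. That member was Col11a2, a chain of type XI fibrils. It was also the 1 member called lower by DESeq2, which called 0.804% of its 14048 genes lower and 0.0925% higher. Of the 37 members 24 had a fold change below 0, with a median of -0.050 on the log2 scale, against 44.8% of all genes tested and a median of 0.020. Fold changes are praliciguat over placebo throughout.

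**Figure D1:**
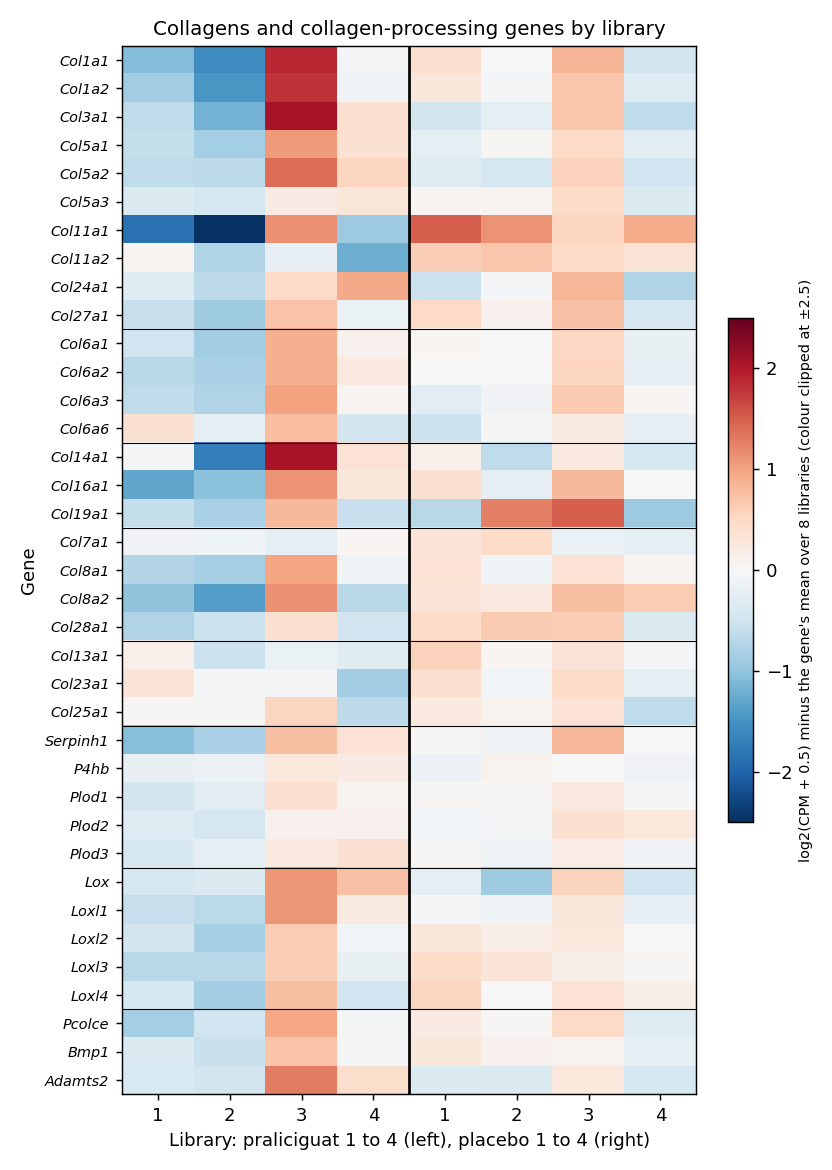
Heat map of the 37 genes (rows, in groups by role separated by thin lines) in the 8 libraries (columns, praliciguat left of the black line, placebo right), coloured by log2(CPM + 0.5) minus the gene's mean over the 8 libraries. Praliciguat replicate 3 is the highest library for 24 genes, and praliciguat replicates 1 and 2 hold the lowest value for 29.

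The fibrils of muscle connective tissue are mostly type I and type III collagen, and their 3 genes took between 26.3% and 59.3% of the members' summed TPM in a library. Col1a1 and Col1a2 encode the chains of type I collagen, the main load-bearing fibril. Col1a1 (chromosome 11, 94936224 to 94953042) was at 57.05, 40.03, 489.57 and 120.39 TPM in praliciguat replicates 1 to 4, against 166.49, 119.00, 237.94 and 93.48 TPM in placebo replicates 1 to 4. The praliciguat libraries thus held both the highest and the lowest values, 12.2-fold apart, while placebo libraries spanned 2.55-fold. Its log2 fold change was 0.19 ± 0.71 (SE). Col1a2 (chromosome 6, 4505618 to 4541543) had 63.62, 41.33, 448.40 and 112.77 TPM with praliciguat and 148.22, 112.50, 207.75 and 100.33 TPM with placebo. It repeated the pattern of Col1a1, with groups that overlapped and a log2 fold change of 0.22 ± 0.65 (SE). Without praliciguat replicate 3 the log2 fold changes were -1.02 ± 0.43 for Col1a1 and -0.90 ± 0.36 for Col1a2 (edgeR adjusted p = 0.540 and 0.501), so both changed sign. They also changed sign with all 8 libraries kept, at -0.41 and -0.33 by another test, limma-voom. Without placebo replicate 4 the fold change of Col1a1 was -0.0010.

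Col3a1 encodes type III collagen, the thin fibril of distensible tissue and of early repair, and had the highest mean of the 37 genes (225 TPM over the 8 libraries). It was at 103.75, 70.24, 741.10 and 220.83 TPM with praliciguat, against 123.01, 139.15, 287.09 and 111.92 TPM with placebo. Praliciguat replicate 3 was above all 4 placebo libraries, praliciguat replicate 4 was above 3 of them, and praliciguat replicates 1 and 2 were below all, so the groups overlapped. The log2 fold change was 0.78 ± 0.67 (SE, edgeR adjusted p = 0.984), and -0.26 ± 0.45 without praliciguat replicate 3.

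Sequence before the RefSeq start is shown for Col3a1 and Col1a2, whose type III and type I chains are set against each other below. The ratio there uses Col1a1, for which no promoter is printed. The stretches are from RefSeq on GRCm38.p6, the assembly of mm10, on the plus strand, and leave out every base that the GENCODE M21 annotation puts in an exon. They cover chr1:45311288-45311537 for Col3a1 and chr6:4505370-4505492 for Col1a2. The Col1a2 stretch runs from 248 to 126 bases before the RefSeq start, and the bases next to it on both sides are annotated as exon. Capitals mark matches to 3 short motifs searched on both strands: CCAAT, the box bound by NF-Y (ATTGG on the other strand), TATAA, the TATA box (TTATA on the other strand), and CAGAC, the box bound by SMAD proteins (GTCTG on the other strand).
Col3a1: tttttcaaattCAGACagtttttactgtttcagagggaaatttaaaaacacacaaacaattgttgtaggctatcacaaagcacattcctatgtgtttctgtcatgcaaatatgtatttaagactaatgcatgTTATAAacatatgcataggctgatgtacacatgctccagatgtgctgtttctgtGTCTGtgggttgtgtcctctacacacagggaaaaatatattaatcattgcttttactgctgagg
Col1a2: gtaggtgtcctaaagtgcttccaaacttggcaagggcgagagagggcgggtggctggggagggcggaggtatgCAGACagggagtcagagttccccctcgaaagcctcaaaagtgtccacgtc
In Col3a1 the CAGAC motif began 239 bases before the RefSeq start and its reverse 64 bases before it, and the TATAA match, 117 bases before the start, overlapped its own reverse. In Col1a2 the stretch shown held 1 CAGAC, 175 bases before the RefSeq start, and its full window also held CCAAT, outside the stretch shown. Over the 250 bases before each start, 42.2% of 32851 RefSeq promoters held CAGAC on either strand, 33.8% CCAAT and 22.8% TATAA. The 29 windows of the 28 members with an entry held them in 51.7%, 27.6% and 13.8%. These matches are a description of letters only.

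Type III stood higher relative to type I with praliciguat. The ratio of Col3a1 to Col1a1, taken within each library from TPM, was 1.82, 1.75, 1.51 and 1.83 in praliciguat replicates 1 to 4, against 0.739, 1.17, 1.21 and 1.20 in placebo replicates 1 to 4. The groups did not overlap, with praliciguat higher, although praliciguat replicates 1 and 2 had the lowest type I levels and replicate 3 the highest. The mean ratio was 1.73 ± 0.148 with praliciguat and 1.08 ± 0.227 with placebo (SD, n = 4 each), 1.61-fold higher. The exact two-sided permutation p was 0.0286, the smallest that 4 against 4 libraries can give, and 0.114 after adjustment over the 4 ratios computed, which does not pass 0.05. Sample titles carry numbers that form a lower and an upper run (described below), and the ratio was higher with praliciguat in each, by 0.833 among the lower numbers and by 0.472 among the upper ones. The difference was 0.725 without praliciguat replicate 3. It was 0.539 without placebo replicate 1, the lowest library.

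**Figure D2:**
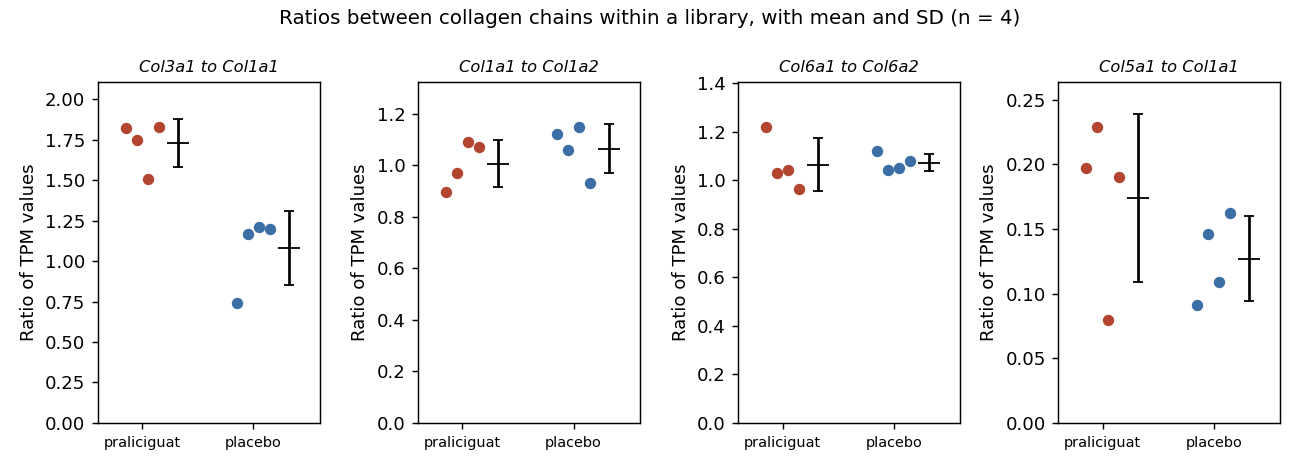
Ratio of TPM values of 4 pairs of collagen chains (vertical axes, starting at 0) in each praliciguat and placebo library (points, in replicate order), with the group mean and SD (n = 4). The ratio of Col3a1 to Col1a1 runs from 1.51 to 1.83 with praliciguat and from 0.739 to 1.21 with placebo, and the other 3 ratios overlap between the groups.

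The chain ratios within type I and within type VI varied less than the levels of the chains. The ratio of Col1a1 to Col1a2 was 1.01 ± 0.0904 with praliciguat and 1.06 ± 0.0960 with placebo (SD, n = 4, exact permutation p = 0.371), although both genes varied more than 10-fold among praliciguat libraries. The ratio of Col6a1 to Col6a2 was 1.06 ± 0.111 with praliciguat and 1.07 ± 0.0356 with placebo (SD, n = 4, exact permutation p = 0.886). The ratio of Col5a1 to Col1a1 was 0.174 ± 0.0649 with praliciguat and 0.127 ± 0.0326 with placebo (SD, n = 4, exact permutation p = 0.229), lowest in praliciguat replicate 3 at 0.0798.

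Among the minor fibrillar chains, type V collagen starts fibrils and limits their width. Col5a1, Col5a2 and Col5a3 averaged 20.6, 30.0 and 27.4 TPM with praliciguat and 18.4, 21.3 and 30.4 TPM with placebo, with log2 fold changes of 0.17 ± 0.41, 0.51 ± 0.48 and -0.12 ± 0.21 (SE). Col5a3 spread 1.74-fold among praliciguat libraries and 1.80-fold among placebo libraries, where Col5a1 spread 4.27-fold and 1.72-fold. Col5a2 lies 24.6 kb from Col3a1 on chromosome 1, and like Col3a1 its 2 highest libraries with praliciguat were replicates 3 and 4, at 61.23 and 31.93 TPM, against 13.56 and 13.25 TPM in praliciguat replicates 1 and 2. Placebo libraries had 15.65 to 35.05 TPM. Col1a1 and Col6a1, on other chromosomes, also had praliciguat replicates 3 and 4 as their 2 highest praliciguat libraries. Col24a1 and Col27a1, minor fibrillar collagens of developing bone and cartilage, had log2 fold changes of 0.25 ± 0.44 and -0.41 ± 0.40 (SE).

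Type XI collagen, best known from cartilage fibrils, gave the 1 member past an unadjusted threshold. Col11a2 (chromosome 17, 34038919 to 34066684) was at 4.81, 2.59, 4.30 and 1.93 TPM with praliciguat, against 7.54, 7.49, 6.99 and 6.13 TPM with placebo. The highest praliciguat value was under the lowest placebo value. Such a gap, judged on CPM, was found with praliciguat lower for 2.54% of all genes tested and with praliciguat higher for 1.32%. The log2 fold change was -1.0 ± 0.26 (SE), with an edgeR adjusted p of 0.385 and a DESeq2 adjusted p of 0.0327. It ranged from -1.24 to -0.81 with 1 library left out. It was -1.10 without praliciguat replicate 3, so leaving out that library had little effect here. It was lower with praliciguat in each run of title numbers, by -1.0 (lower run) and -1.11 (upper run). Of the 8 slow fibre markers, such as Myh7, 7 were also lower without overlap, and the 8 summed to 447 to 707 TPM with praliciguat and 1330 to 3241 TPM with placebo, and their part in the Col11a2 values was not tested. Col11a1, the partner chain, was at 0.10, 0.03, 1.75 and 0.31 TPM with praliciguat, against 2.17, 1.56, 1.10 and 1.46 TPM with placebo. It lay below the placebo libraries in 3 of 4 praliciguat libraries, and its counts ran down to 3 reads in the lowest one. Its log2 fold change was -1.54 ± 0.92 (SE), and -3.38 ± 0.61 without praliciguat replicate 3 (edgeR adjusted p = 0.125).

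**Figure D3:**
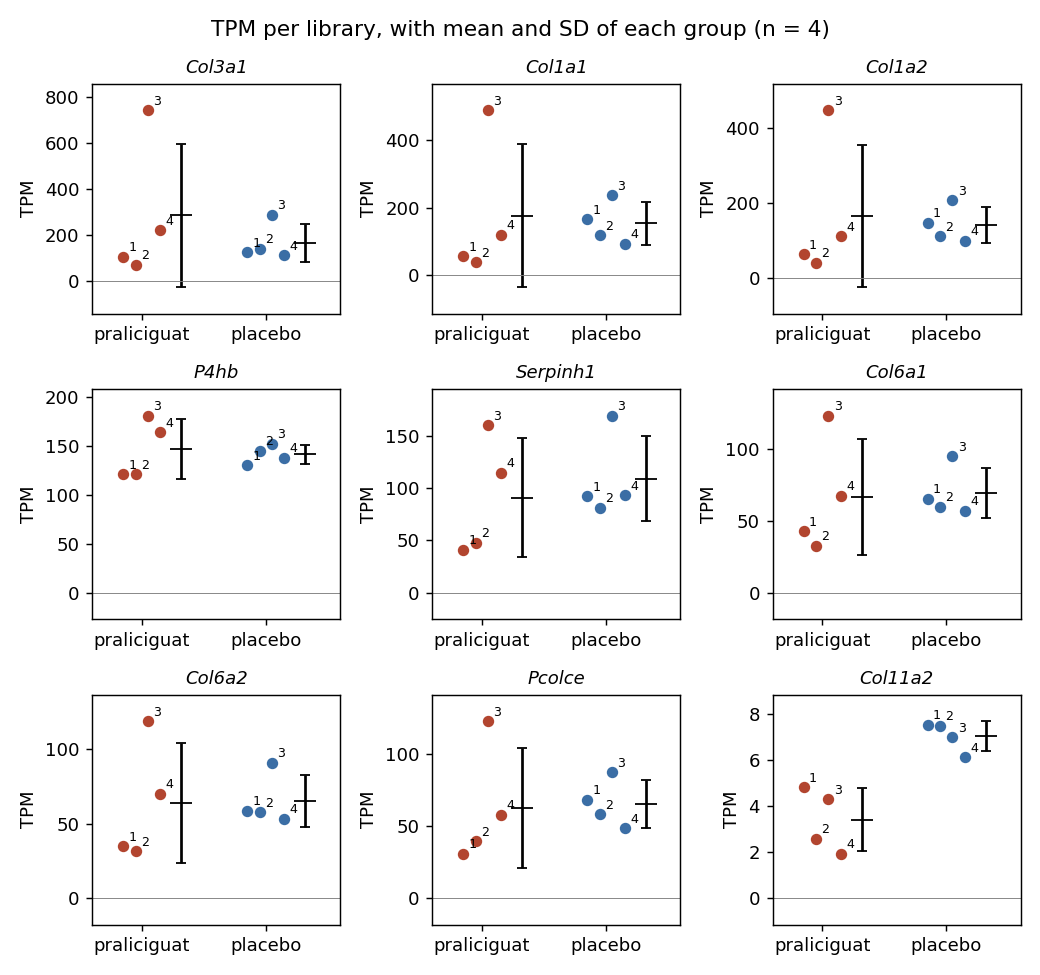
TPM in each library (points, numbered by replicate, praliciguat left, placebo right) for the 8 members of highest mean TPM and for Col11a2, with group mean and SD (n = 4) as black bars. Col11a2 is the panel without overlap, at 1.93 to 4.81 TPM with praliciguat and 6.13 to 7.54 TPM with placebo.

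Type VI collagen forms beaded filaments next to the muscle fibre's basement membrane, and its loss causes muscle disease. Col6a1 was at 42.74, 32.63, 123.45 and 67.51 TPM with praliciguat, against 65.53, 60.05, 95.32 and 57.29 TPM with placebo. Col6a2, which lies 85.2 kb from Col6a1 on chromosome 10, was at 34.98, 31.60, 118.81 and 70.08 TPM with praliciguat, against 58.68, 57.88, 91.02 and 53.21 TPM with placebo. For both, praliciguat replicates 1 and 2 were the lowest libraries and praliciguat replicate 3 the highest, and the log2 fold changes were -0.048 ± 0.36 and -0.021 ± 0.38 (SE). Col6a3 followed them (-0.030 ± 0.39). Col6a6 was far scarcer, at 1.73 ± 0.799 TPM with praliciguat and 1.41 ± 0.362 TPM with placebo (SD, n = 4).

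Of the fibril-associated chains, which sit on fibril surfaces, Col14a1 varied most among praliciguat libraries, at 5.13, 1.49, 24.60 and 7.01 TPM, against 6.08, 3.33, 6.86 and 4.14 TPM in placebo libraries. Praliciguat replicate 3 exceeded every other library by more than 3-fold. Its log2 fold change was 0.90 ± 0.67 (SE), and -0.10 ± 0.48 without praliciguat replicate 3. Col16a1 and Col19a1 had -0.19 ± 0.54 and -0.92 ± 0.72 (SE).

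The network-forming and anchoring chains all had fold changes below 0. Col7a1, the anchoring fibril of skin, was steady, at 6.20 ± 0.458 TPM with praliciguat and 7.41 ± 1.57 TPM with placebo (SD, n = 4). Col8a1 and Col8a2 form the short-chain network of vessel walls and had log2 fold changes of -0.17 ± 0.41 and -0.75 ± 0.71 (SE). Col8a2 was at 0.23, 0.13, 1.88 and 0.35 TPM with praliciguat, against 0.92, 0.81, 1.38 and 1.23 TPM with placebo. Praliciguat replicates 1, 2 and 4 were below every placebo library and praliciguat replicate 3 was above them. Without praliciguat replicate 3 its log2 fold change was -2.14 ± 0.36, with the lowest edgeR adjusted p of any member in that fit (0.0989). Col28a1, a chain with von Willebrand factor domains known from peripheral nerve, was at 1.07 to 2.91 TPM with praliciguat and 1.59 to 3.46 TPM with placebo (log2 fold change -0.73 ± 0.34 SE, edgeR adjusted p = 0.893). Schwann cell markers, the nerve sheath genes, summed to 99.6 to 197 TPM with praliciguat and 158 to 350 TPM with placebo, and their part in the Col28a1 values was not tested.

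The transmembrane chains were scarce. Col13a1, which sits at the neuromuscular junction, was at 0.608 ± 0.180 TPM with praliciguat and 0.988 ± 0.271 TPM with placebo (SD, n = 4), with a log2 fold change of -0.61 ± 0.30 (SE). Col23a1 had -0.29 ± 0.29 and Col25a1, needed for motor axons to enter muscle, -0.016 ± 0.65 (SE). Col25a1 rested on 3 to 30 reads per library.

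Inside the cell, Serpinh1 encodes HSP47, the collagen chaperone, and P4hb the protein disulfide isomerase that is also the beta subunit of prolyl 4-hydroxylase. Serpinh1 was at 41.10, 48.00, 160.52 and 114.77 TPM with praliciguat, against 92.26, 81.24, 169.54 and 93.54 TPM with placebo. Replicates 1 and 2 of praliciguat were again below all placebo libraries, and the log2 fold change was -0.24 ± 0.42 (SE). P4hb was at 121.27, 121.40, 181.17 and 164.38 TPM with praliciguat, against 130.42, 145.35, 152.60 and 137.95 TPM with placebo. It spread only 1.49-fold with praliciguat and 1.17-fold with placebo, with praliciguat replicate 3 highest and praliciguat replicates 1 and 2 lowest. Its log2 fold change was 0.085 ± 0.13 (SE). The lysyl hydroxylases Plod1, Plod2 and Plod3 had log2 fold changes of -0.089 ± 0.18, -0.27 ± 0.18 and 0.016 ± 0.18 (SE). Plod3 overlaps Znhit1 on the opposite strand by 1003 bases, and its reads are uncertain to that extent.

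Outside the cell, Bmp1 cuts the C-propeptide, Pcolce enhances that cut and Adamts2 cuts the N-propeptide. Pcolce was at 31.00, 39.58, 122.97 and 57.88 TPM with praliciguat, against 68.32, 58.28, 87.49 and 48.58 TPM with placebo. It overlapped between the groups, with praliciguat replicate 3 highest and replicate 1 lowest, and a log2 fold change of -0.050 ± 0.38 (SE). Bmp1 had -0.043 ± 0.26 and Adamts2 0.60 ± 0.39 (SE). Adamts2 was at 5.55, 5.18, 19.68 and 10.21 TPM with praliciguat, against 6.05, 5.64, 9.71 and 5.73 TPM with placebo. Without praliciguat replicate 3 its fold change was 0.12 ± 0.26, and the other members above 0 in that fit were Lox, Col24a1, Col6a6 and P4hb.

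Of the 5 lysyl oxidases 3 had fold changes below 0 and none passed the test. Lox, the founding enzyme of the family, was at 9.67, 9.98, 31.24 and 22.61 TPM with praliciguat, against 11.86, 7.0, 21.46 and 10.16 TPM with placebo. Praliciguat replicates 3 and 4 were the highest libraries and placebo replicate 2 the lowest, so the groups overlapped. The log2 fold change was 0.58 ± 0.42 (SE), and 0.25 ± 0.42 without praliciguat replicate 3. Loxl1, tied to elastic fibres, had 0.22 ± 0.38, and Loxl2, Loxl3 and Loxl4 had -0.26 ± 0.28, -0.40 ± 0.31 and -0.48 ± 0.43 (SE). Without praliciguat replicate 3 these 3 were at -0.62 ± 0.17, -0.82 ± 0.20 and -1.13 ± 0.28 (edgeR adjusted p = 0.259, 0.198 and 0.207). Loxl3 overlaps Htra2 on the opposite strand by 1297 bases.

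**Figure D4:**
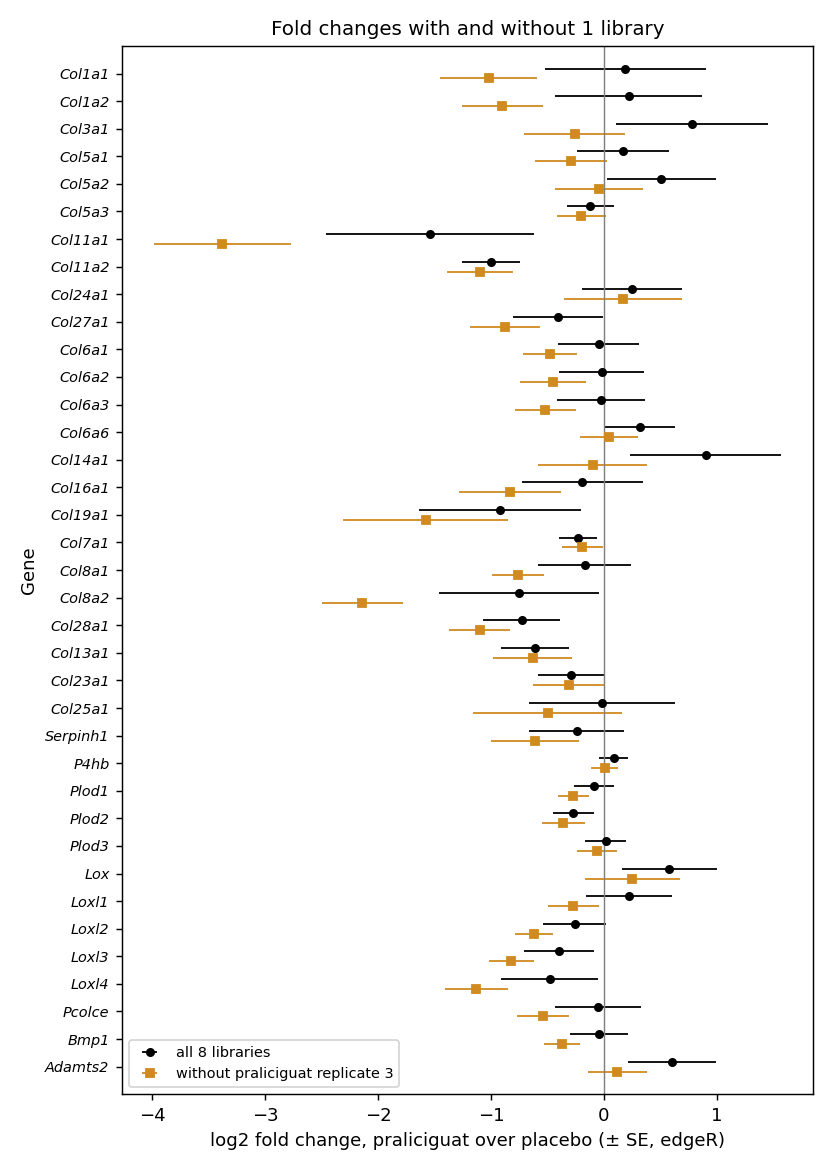
log2 fold change of each of the 37 genes, praliciguat over placebo, with its SE from edgeR (horizontal axis), from all 8 libraries (black circles) and without praliciguat replicate 3 (orange squares). With all libraries 24 genes lie below 0, and without that library 32 do.

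The members differed among praliciguat libraries more than among placebo libraries. For 35 of the 37 the SD of log2(CPM + 0.5) was larger with praliciguat, against 64.8% of all genes tested. The median SD of the members was 0.736 with praliciguat and 0.336 with placebo, where that of all genes was 0.223 and 0.186. Without praliciguat replicate 3, an alternative chosen after seeing the data, the count was 31 of 37, against 51.6% of all genes, and the members' median SD with praliciguat was 0.436. Praliciguat replicate 3 was the highest library for 24 members and for 22.2% of all genes tested. Praliciguat replicate 1 or 2 was the lowest for 29 members and for 29.1% of all genes tested. The members vary together across libraries, so these counts are not 37 separate observations, and no test of the spread was made.

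The lower run of title numbers holds replicates 1 and 2 of each group and the upper run replicates 3 and 4, and the labels give these numbers no meaning. Within the lower run 35 of 37 members were lower with praliciguat, with a median difference of -0.63 on the log2 scale, against 51.4% of all genes. Within the upper run 9 of 37 were lower, with a median of 0.19, against 48.4% of all genes. Col1a1 had a difference of -1.51 among the lower numbers and 0.73 among the upper ones, and Col3a1 had -0.57 and 1.20. With 2 libraries per group in a run, the difference between runs was not tested. Fitting the run as a block left 0 members called, with 28 of 37 below 0.

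Leaving out praliciguat replicate 3 placed 32 of 37 members below 0, with a median of -0.48, and 12 of them had an unadjusted edgeR p under 0.05, where 6.39% of the 13651 genes of that fit were lower and 2.86% higher at that level. None passed after adjustment. The 12 were Col1a2, Col11a1, Col11a2, Col27a1, Col8a1, Col8a2, Col28a1, Loxl2, Loxl3, Loxl4, Pcolce and Bmp1. Praliciguat replicate 3 was the highest library for 24 members, so leaving it out was bound to lower their praliciguat mean. The members also vary together, so the 12 are not separate observations. Leaving out praliciguat replicate 1, praliciguat replicate 2 or placebo replicate 3 placed 16 of 37 below 0 in each case.

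The fibroblast markers peaked in the same library as the summed collagen genes. The 12 fibroblast and fibro-adipogenic progenitor markers summed to 1569, 910, 3432 and 1717 TPM in praliciguat replicates 1 to 4, against 1640, 1406, 2059 and 1542 TPM in placebo replicates 1 to 4, and all 12 were highest in praliciguat replicate 3. Of the 12, 1 had a fold change below 0, where 24 of the 37 members and 44.8% of all genes tested did. Without praliciguat replicate 3, 10 of the 12 and 32 of the 37 were below 0, against 48.9% of all genes. The 37 collagen genes summed to 663, 577, 2834 and 1209 TPM with praliciguat, against 1097, 996, 1664 and 912 TPM with placebo. The 7 macrophage markers summed to 87.3 to 1100 TPM with praliciguat and 119 to 348 TPM with placebo, and all 7 were highest in praliciguat replicate 3. Their fold changes were all above 0, and all 7 were below 0 without that library. The 8 tenocyte markers, genes of tendon cells, summed to 37 to 350 TPM with praliciguat and 215 to 353 TPM with placebo, with fold changes below 0 for all 8 and the sum in praliciguat replicate 3 within the placebo range. Fmod and Kera of that list, and Dcn, Lum and Dpt of the fibroblast list, are also among the fibril assembly partners below. No gene of these 3 lists was at 0 in every library. The 6 adipocyte markers summed to 1951 to 5159 TPM with praliciguat and 1464 to 3637 TPM with placebo. That sum also peaked in praliciguat replicate 3, where 4 of the 6 were highest, and all 6 had fold changes above 0. The 8 endothelial markers summed to 231 to 320 TPM with praliciguat and 328 to 401 TPM with placebo. All 8 had fold changes below 0, and none peaked in praliciguat replicate 3. The part of these cell types in the collagen values was not tested.

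**Figure D5:**
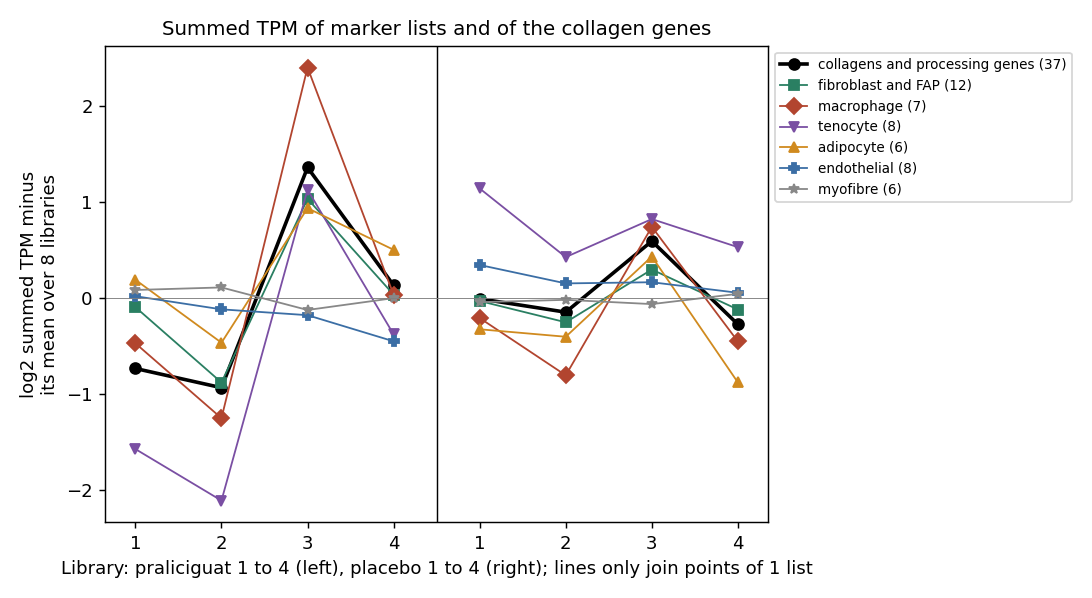
Summed TPM of the 37 collagen genes and of 6 marker lists in each library, as log2 minus the list's mean over the 8 libraries (praliciguat left of the line, placebo right; number of genes in brackets in the legend). The collagen genes and the fibroblast, macrophage and adipocyte markers peak in praliciguat replicate 3, at 2834, 3432, 1100 and 5159 TPM.

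Relative to Pdgfra, the receptor that marks fibro-adipogenic progenitors, Col6a1 of type VI was nearly level, while Col1a1 and Col3a1 were not. The ratio of Col6a1 to Pdgfra was 7.02 to 9.10 with praliciguat and 8.35 to 10.7 with placebo, although Pdgfra itself spread 3.76-fold among praliciguat libraries. The ratio of Col1a1 to Pdgfra was 9.37, 10.4, 33.8 and 16.2 with praliciguat, against 22.2, 16.6, 26.6 and 14.6 with placebo. The ratio of Col3a1 to Pdgfra was 17.0, 18.2, 51.2 and 29.8 with praliciguat, against 16.4, 19.4, 32.1 and 17.5 with placebo. Both ratios overlapped between the groups and were highest in praliciguat replicate 3. The ratio of Serpinh1 to Pdgfra was 6.75 to 15.5 with praliciguat and 11.3 to 19.0 with placebo. These ratios were chosen after the values were seen, and the other type VI chains were not set against Pdgfra.

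Other genes of the collagen pathway gave 0 calls by edgeR in each of 7 lists. Over all genes tested, 3.78% were lower and 1.95% higher at an unadjusted p under 0.05, and 64.8% had a larger SD with praliciguat. Among 18 further folding and hydroxylation genes, 2 were lower and 0 higher at an unadjusted p under 0.05. P3h2, a prolyl 3-hydroxylase, was at 1.13 ± 0.137 TPM with praliciguat and 2.48 ± 0.700 TPM with placebo (SD, n = 4), without overlap, with a log2 fold change of -1.09 ± 0.25 (SE, edgeR adjusted p = 0.303, DESeq2 adjusted p = 0.0211). P4ha1, the hypoxia-responsive catalytic subunit of prolyl 4-hydroxylase, had -0.40 ± 0.16. Of 4 other propeptide-processing genes tested, Adamts3, an N-propeptidase, had the lowest p (-0.90 ± 0.35), followed by the Bmp1 relative Tll1 (-0.35 ± 0.31). Of 20 fibril assembly partners none was past the unadjusted threshold, and all 20 had a larger SD with praliciguat. The lowest p among them were those of Tnc, the matrix protein tenascin C, at 1.65 ± 1.66 TPM with praliciguat and 3.91 ± 1.27 TPM with placebo (SD, n = 4), and of Fmod, the fibril-binding fibromodulin, at 36.4 ± 40.5 and 93.1 ± 19.8 TPM.

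Of 11 collagen receptors tested, 1 was lower at the unadjusted threshold, where 3.78% of all genes tested were lower and 1.95% higher. Itga10, the alpha chain of a collagen-binding integrin of cartilage, was at 0.688 ± 0.144 TPM with praliciguat and 1.67 ± 0.492 TPM with placebo (SD, n = 4), without overlap (log2 fold change -1.24 ± 0.28 SE, edgeR adjusted p = 0.295, DESeq2 adjusted p = 0.0101). Itga1, its relative in muscle and vessel walls, had -0.26 ± 0.15. Of 27 genes of TGF-beta and PDGF signalling, the growth factor routes that drive collagen genes, 3 were lower and 2 higher at the unadjusted threshold. Ctgf, a matrix-bound target of TGF-beta, was at 12.60, 10.65, 40.34 and 30.36 TPM with praliciguat, against 71.07, 39.65, 49.76 and 60.07 TPM with placebo. Ctgf did not overlap between the groups by CPM, the scale of that count, while by TPM praliciguat replicate 3 lay above placebo replicate 2. Its log2 fold change was -1.22 ± 0.39 (SE, edgeR adjusted p = 0.584). Pdgfb and Inhba were at -0.39 ± 0.13 and -0.80 ± 0.31, and the signal transducers Smad3 and Smad2 at 0.60 ± 0.20 and 0.20 ± 0.088 (SE). Of 13 collagen degradation genes tested none was past that threshold, and Mmp3 (2.78 ± 1.25) and Ctsl (0.33 ± 0.20) had the lowest p. The value for Mmp3 was 0.081 without praliciguat replicate 3.

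Among 16 basement membrane and other collagens tested, 4 were lower and 0 higher at the unadjusted threshold, against 3.78% and 1.95% of all genes tested. DESeq2 called 2 of them lower, against 0.804% of its 14048 genes. Col22a1, a collagen of the myotendinous junction, was at 3.28 ± 1.40 TPM with praliciguat and 15.9 ± 5.75 TPM with placebo (SD, n = 4), without overlap (log2 fold change -2.26 ± 0.38 SE, edgeR adjusted p = 0.122, DESeq2 adjusted p = 1.63e-07). Col26a1 was at 0.253 ± 0.148 TPM with praliciguat and 1.38 ± 0.635 TPM with placebo (-2.39 ± 0.57 SE, DESeq2 adjusted p = 0.00415). Col9a2 and Col2a1, cartilage chains that accompany type XI collagen in cartilage fibrils, were low, at 0.193 ± 0.104 and 0.0650 ± 0.0635 TPM with praliciguat and 0.547 ± 0.196 and 0.217 ± 0.107 TPM with placebo (SD, n = 4). Of the 7 cartilage and bone markers 2 passed the count filter, Sox9 and Alpl, and both overlapped between the groups. The cartilage proteoglycan Acan was at 0.07 TPM or less in every library. Ibsp of that list was at 1.38 and 3.07 TPM in placebo replicates 2 and 4, and at 0.18 TPM or less in every other library. Bglap and Sp7 were also highest in those 2 placebo libraries, at 0.44 TPM or less. The part of cartilage or bone tissue in the collagen values was not tested.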

How the data were processed

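The authors deposited 1 table per library with RSEM's columns. Per the file headers, the deposited expected count is RSEM's estimate of a gene's reads, with ambiguous reads split between genes, the deposited TPM is scaled by transcript length, and the deposited effective length is the length over which reads can start, in bases (used only in an alternative for the chain ratios). Per the submitters' processing notes, FastQC, Trimmomatic, STAR 2.5.3a, RSEM 1.2.28 and mm10 were used. Per the labels' protocols the kit was stranded. Whether counting used strand is not stated there, so antisense pairs are uncertain.

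Rounded expected counts were tested with edgeR 4.0.16 under R 4.3.3 (filterByExpr, TMM, robust quasi-likelihood F test, Benjamini-Hochberg over all genes, threshold 0.05, group only). A 0 count allows up to 0.0941 to 0.142 CPM, from 3 counts, for counting error only. Within groups, paired libraries differed by a chi-square per degree of freedom of 21.9 to 136. Replicates were numbered in accession order. Members and lists were chosen with earlier results of these data known. A member has every library given if among the 8 of highest mean TPM, past an unadjusted p of 0.05, or without overlap in CPM. Of each other list the 2 genes of lowest p were named, and up to 5 past that p. On simulated counts over 13427 genes for this comparison, 59.8% of 97 genes changed by 1 and 92.9% of 98 changed by 2 (log2 scale) were found again. Of the unchanged genes 9 were called. The simulation drew each gene independently, with no library standing apart in many genes at once, so these shares need not hold for the members. Chain ratios were taken from TPM, or from counts per effective length or on the log2 scale as alternatives. Other alternatives were DESeq2 1.42.0, limma 3.58.1 (voom, and log2 of TPM plus 1 or 0.1), DESeq2 size factors, other filters, title-number run as a block, and each library left out.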

Additional observations from a re-analysis of the deposited data

Results flagged for a closer look

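In 10 of 82 sets of 4 values examined (37 genes and 4 ratios in each group), 1 library stood far from the other 3 by Dixon's gap test at its 95% critical value. Chance gives about 1 in 20 such groups where the sets are independent and the values normally distributed. The members vary together across libraries, so the 10 of 82 cannot be judged against that rate. Praliciguat replicate 3 was far above the other praliciguat libraries for Col11a1 (1.75 TPM), Col19a1 (0.89 TPM), Col8a2 (1.88 TPM) and Loxl4 (1.26 TPM). Placebo replicate 3 was far above the other placebo libraries for Col3a1 (287.09 TPM), Col5a2 (35.05 TPM), Col6a2 (91.02 TPM), Serpinh1 (169.54 TPM) and Adamts2 (9.71 TPM). The ratio of Col3a1 to Col1a1 was far below the other placebo libraries in placebo replicate 1 (0.739).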

How the results depend on the processing

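No paired analysis was possible because the replicate numbers were given in accession order and pair nothing across groups. Over all genes edgeR called 0. DESeq2 called 126 (113 lower, 13 higher), limma-voom 2, limma on log2(TPM + 0.1) 3 and edgeR with the title-number run as a block 3, and leaving out 1 library gave 0 to 5. Of the members DESeq2 called 1, Col11a2, and every other alternative run called 0. The members' median log2 fold change ranged from -0.48 to 0.062 with 1 library left out, and the number below 0 from 16 to 32.

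Col1a1 and Col1a2, at 0.19 and 0.22, changed sign in tests that average logs: -0.41 and -0.33 with limma-voom, -0.42 and -0.34 on log2(TPM + 1), with or without the filter, and -0.43 and -0.35 on log2(TPM + 0.1). With the run as a block they were -0.30 and -0.19, and the cause was not tested. With 1 library left out the log2 fold change ranged from -1.02 to 0.51 for Col1a1, -0.90 to 0.53 for Col1a2, -0.26 to 1.14 for Col3a1, -0.48 to 0.16 for Col6a1, -0.45 to 0.19 for Col6a2, -0.61 to 0.014 for Serpinh1, -0.54 to 0.16 for Pcolce, 0.0083 to 0.15 for P4hb and -1.24 to -0.81 for Col11a2.

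The difference in the ratio of Col3a1 to Col1a1 ranged from 0.539 to 0.725 with 1 library left out. That of Col6a1 to Col6a2 ranged from -0.0579 to 0.0283. That of Col1a1 to Col1a2 (-0.0584) was -0.158 within the lower and 0.0412 within the upper run of title numbers. Col11a1 and Col25a1 rested on as few as 3 reads in a library.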
